A study of Mus musculus with 15 samples.

Results

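The genes described are those whose symbols start with Ms4a, Siglec, Cd300, Fcgr, Fcer or Tlr, which encode receptors of innate myeloid cells or their close relatives. Of the 24411 genes counted, 50 carried such a symbol, and the 39 with at least 10 counts summed over the 15 libraries were kept. They comprised 5 Fcgr genes, 1 Fcer gene, 12 Tlr genes, 7 Cd300 genes, 5 Siglec genes and 9 Ms4a genes. Poly(A) RNA of mouse liver had been sequenced in 4 control libraries labelled TdTomato, which the series design calls wild type, in 6 libraries labelled LATS KO (LATS_KO here) and in 5 labelled Yap OE (YAP_OE here). LATS kinases restrain the transcriptional coactivator YAP, and the study's title concerns inflammatory monocytes in YAP-driven proliferation. The alleles, the vector or driver, the strain, the age and the time after treatment are not given in the sources used here, and whether each library is a different animal is not stated. The p-values therefore rest on spread between libraries, and that spread may be technical.

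As background, many Fc, CD300 and Siglec receptors signal through short tyrosine motifs in the cell. Fc receptors bind the constant part of antibodies, and the activating ones signal through the ITAM motif of the common gamma chain encoded by Fcer1g, whereas Fcgr2b carries an inhibitory ITIM. Toll-like receptors sense microbial lipids, proteins and nucleic acids, CD300 proteins sense membrane lipids, Siglecs bind sialic acids, and most MS4A proteins are multi-pass membrane proteins without a settled ligand. In liver, Kupffer cells and recruited monocytes carry many of these receptors, sinusoidal endothelium carries Fcgr2b, and hepatocytes carry the neonatal Fc receptor Fcgrt.

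Counts in genes ranged from 6166680 to 28225360 per library. A pair of libraries stood apart, with unmapped reads at 78.5% in TdTomato 1 and 89.9% in LATS_KO 3 against 2.53% to 16.7% elsewhere. In them 35 and 33 of the 39 receptor genes were at 0 counts. The smallest count above 0 among the receptor genes was 97 in TdTomato 1 and 15 in LATS_KO 3, against 1 to 4 in every other library. In LATS_KO 3 the receptor genes with counts were Fcgr1, Fcgr2b, Fcgr4, Fcgrt, Fcer1g and Ms4a6c. Levels are in CPM, counts scaled to library size, with library sizes adjusted by TMM, a normalization for composition. For the marker calls that follow, 10% of all genes tested were higher in LATS_KO and 17.9% in YAP_OE, and 0.973% and 10.8% were lower. General macrophage markers were summed at 21.1 to 63.2 CPM in TdTomato, 238 to 1392 CPM in LATS_KO and 517 to 825 CPM in YAP_OE, and 8 of 8 passed the test as higher in either group. Kupffer cell markers were summed at 2.32 to 10.6, 13.1 to 509.9 and 129 to 382 CPM in these groups, and monocyte markers at 1.35 to 18.4, 7.27 to 107 and 5.97 to 16.3 CPM. The monocyte value of 18.4 was that of TdTomato 1, and the other 3 controls were at 1.35 to 2.21 CPM, below every LATS_KO and YAP_OE library. Of the Kupffer cell markers 5 of 5 were higher in LATS_KO and 4 of 5 in YAP_OE, and of the 3 monocyte markers tested 2 and 1 were. Cd3e, Cd3d, Cd3g and Cd2 of T cells, Prg2, Epx, Ccr3 and Ear1 of eosinophils, and Cpa3, Mcpt4, Tpsb2 and Mcpt8 of mast cells and basophils were at 0 in every TdTomato library. The B cell markers were summed at 1.10 to 16.1 CPM in TdTomato, 0 to 3.97 CPM in LATS_KO and 0.677 to 2.77 CPM in YAP_OE, and the 1 tested did not pass. The value of 16.1 was Blnk in TdTomato 1, and the other 3 controls were at 1.10 to 1.92 CPM. The neutrophil markers reached 2.40, 13.6 and 3.25 CPM in the 3 groups, and 1 of the 3 tested rose in either comparison. The T cell markers reached 0.0794, 1.36 and 0.706 CPM, with 1 of 1 tested higher in both, and the mast cell and basophil markers 0.958, 6.14 and 6.41 CPM and the plasmacytoid dendritic cell markers 15.2, 23.1 and 17.8 CPM, with 0 of 1 in each. Kit gave nearly all of the mast cell sums, and Cpa3, Mcpt4, Cma1, Tpsb2 and Mcpt8 were each at no more than 0.0794 CPM in any library. Hepatocyte markers, which define the tissue, were summed at 92024.7 to 157211 CPM in TdTomato, 38131.7 to 165937 in LATS_KO and 71598.3 to 130871 in YAP_OE, with 1 and 2 of 5 lower. Cholangiocyte markers were summed at 24.1 to 47.9, 91.4 to 4377 and 3709.98 to 6182 CPM, with 4 of 5 higher in both. Their sums were 4377, 1918 and 1317 CPM in LATS_KO 1 to 3 and 200, 91.4 and 128 CPM in LATS_KO 4 to 6. The hepatocyte sums were 38131.7 to 82997.6 CPM in LATS_KO 1 to 3 and 141007 to 165937 CPM in LATS_KO 4 to 6. The part of this split between LATS_KO libraries in the receptor levels was not tested.

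The sequences just upstream of 5 receptor genes are shown because these genes carry the main contrast, Fcgr1, Fcgr4, Siglece and Ms4a6c being nearly absent from the controls and Fcgr2b present in them. They are the 250 bases before each start in RefSeq (GRCm38.p6), read 5′ to 3′ on the strand of the gene. Capitals mark GAGGAA on either strand, the core of the box bound by the myeloid factor PU.1, and TTCNNNGAA, the core of STAT sites.
Fcgr1 (chr3:96293970-96294219, minus strand): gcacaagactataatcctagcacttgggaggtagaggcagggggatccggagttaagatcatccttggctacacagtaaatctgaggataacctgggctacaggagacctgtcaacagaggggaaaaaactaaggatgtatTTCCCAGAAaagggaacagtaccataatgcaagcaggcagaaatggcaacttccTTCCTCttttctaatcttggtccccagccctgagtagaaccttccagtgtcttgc
Fcgr4 (chr1:171018676-171018925, plus strand): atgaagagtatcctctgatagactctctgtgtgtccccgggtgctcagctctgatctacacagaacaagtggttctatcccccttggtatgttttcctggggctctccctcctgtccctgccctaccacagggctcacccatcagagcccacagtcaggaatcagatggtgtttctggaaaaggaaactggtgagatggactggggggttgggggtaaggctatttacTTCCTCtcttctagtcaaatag
Siglece (chr7:43660162-43660411, minus strand): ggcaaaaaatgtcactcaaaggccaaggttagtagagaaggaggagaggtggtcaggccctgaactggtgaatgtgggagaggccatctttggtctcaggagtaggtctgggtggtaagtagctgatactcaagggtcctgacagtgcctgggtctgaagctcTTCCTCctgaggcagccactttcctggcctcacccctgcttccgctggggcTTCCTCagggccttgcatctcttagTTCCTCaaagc
Ms4a6c (chr19:11469118-11469367, plus strand): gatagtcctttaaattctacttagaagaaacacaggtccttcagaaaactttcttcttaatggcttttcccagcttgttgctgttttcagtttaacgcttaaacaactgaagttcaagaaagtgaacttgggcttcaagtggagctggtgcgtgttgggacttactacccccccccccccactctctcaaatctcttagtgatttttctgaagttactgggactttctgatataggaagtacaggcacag
Fcgr2b (chr1:170976072-170976321, minus strand): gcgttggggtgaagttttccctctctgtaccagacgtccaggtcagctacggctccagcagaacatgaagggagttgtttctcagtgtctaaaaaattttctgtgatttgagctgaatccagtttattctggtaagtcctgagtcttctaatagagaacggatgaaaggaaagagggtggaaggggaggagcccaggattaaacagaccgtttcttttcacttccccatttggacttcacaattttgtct
GAGGAA occurred, as its reverse complement, 55 bases before the start of Fcgr1, 22 bases before that of Fcgr4, and 87, 36 and 11 bases before that of Siglece. A TTCNNNGAA match lay 109 bases before the start of Fcgr1. Neither motif was found in the windows of Ms4a6c and Fcgr2b. Of the 34 receptor genes kept that had a RefSeq window, 16 held GAGGAA, and it was in 43.6% of their 39 windows against 23.3% of all 32851 windows of this length. TTCNNNGAA was in 12.8% of their windows against 7.02% of all, and GGAATG, the core that TEAD factors bind with YAP, in 7.69% against 12.6%. The motifs were counted on both strands, and a GAGGAA match on the reverse strand can share bases with a TTCNNNGAA match. A match describes letters and does not show binding.

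The first question was whether livers labelled LATS_KO differed from controls in these receptors. Of the 32 receptor genes that passed the filter on low counts, 23 were higher in LATS_KO and 0 lower (edgeR quasi-likelihood test, Benjamini-Hochberg adjustment over all 13055 genes tested, threshold 0.05), where 10% of all genes tested were higher and 0.973% lower. Those higher were Fcgr1, Fcgr3, Fcgr4, Fcer1g, Tlr1, Tlr7, Tlr8, Tlr13, 5 of 6 Cd300 genes, 3 of 3 Siglec genes and 7 of 7 Ms4a genes. The median log2 fold change of the 32 was 5.43, or 4.70 with the 6 genes at 0 counts in all controls set to their lower bounds, against 0.13 over all genes. In bulk liver, fewer cells of a type and less RNA per cell cannot be told apart. All libraries of LATS_KO lay above all of TdTomato for Fcgr1, Fcgr4, Fcer1g and Ms4a6c alone (6.65% of all genes tested), since LATS_KO 3 held 0 counts of most others, and 0 lay below (1.90% of all genes tested). Without LATS_KO 3 and TdTomato 1, 23 of 32 did so (14.5% of all genes tested), and 27 of 33 were called higher (13.7% of all genes tested), among them the 23. The count rested on the control libraries, being 8 without TdTomato 2, 14 without TdTomato 3 and 13 without TdTomato 4. Fitted without YAP_OE, the same comparison called 0 of 26, with 18 at an unadjusted p under 0.05. The share of all genes called without TdTomato 2, 3 or 4 or without YAP_OE is not given here. Whether the receptor genes lost more calls than other genes in these fits is therefore not shown.

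In YAP_OE, 24 of the 32 receptor genes were higher and 0 lower than in TdTomato, where 17.9% of all genes tested were higher and 10.8% lower (28.7% in either direction). They were the 23 genes above and Tlr4, and the comparison shares its controls with the first. The median log2 fold change was 5.19, or 4.28 with genes at 0 counts in the controls set to their bounds, against 0.17 over all genes. Every library of YAP_OE lay above every control for 27 of the 32 (28.3% of all genes tested) and below for Fcgrt (13.4% of all genes tested). Without TdTomato 1 and LATS_KO 3, 28 of 33 were higher (27.2% of all genes tested), and 28 of 32 lay above the controls in every library (31.4% of all genes tested).

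**Figure D1:**
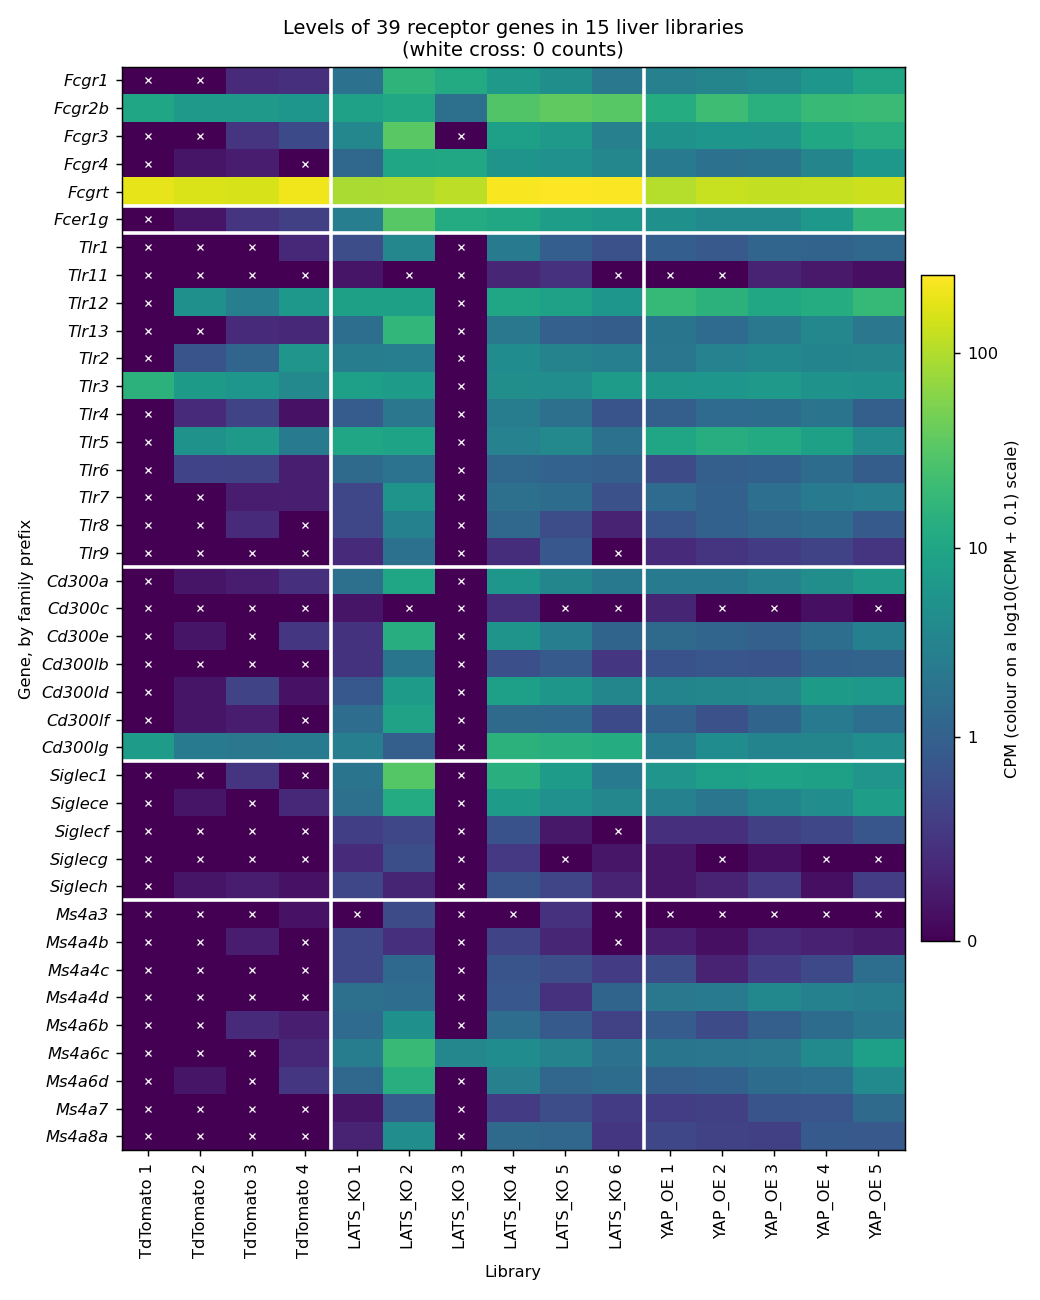
Level of each of the 39 receptor genes (rows, by family) in each of the 15 libraries (columns), in CPM with colour on a log10(CPM + 0.1) scale and a white cross at 0 counts. TdTomato 1 and LATS_KO 3 show crosses in 35 and 33 rows, and Fcgr2b and Fcgrt are coloured in every library.

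Receptor genes differed in how they entered the test. For 25 of the 32, the 4 control libraries held 0 to 14 counts in all, so these genes passed the filter on low counts through LATS_KO or YAP_OE, where they are high. The counts and medians over the 32 follow in part from that and describe the genes that passed. The other 7, Fcgr2b, Fcgrt, Tlr2, Tlr3, Tlr5, Tlr12 and Cd300lg, had 149 to 11645 counts in the controls. All genes called higher, 23 in LATS_KO and 24 in YAP_OE, were among the 25, and 0 of the 7 were called in this fit. With voom, another method, Fcgr2b, Fcgrt, Tlr2, Tlr5, Tlr12 and Cd300lg each passed in LATS_KO, YAP_OE or both, Fcgrt as lower in YAP_OE. Of all genes tested with under 100 counts in the controls, 36.2% were higher in LATS_KO and 56.3% in YAP_OE. Of those with 100 or more counts, 2.68% and 7.04% were.

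Activating Fc receptors were close to absent from control liver. Values given for a whole group follow the numbers of its libraries. Fcgr1 (chromosome 3, 96282909 to 96293969, mm10), the high-affinity IgG receptor of monocytes and macrophages, was at 0, 0, 0.159 and 0.192 CPM over controls 1 to 4. The LATS_KO libraries showed 1.79, 16.0, 11.8, 6.53, 4.79 and 2.16 CPM, and the YAP_OE libraries held 2.95, 3.37, 4.12, 6.04 and 9.56 CPM. Every LATS_KO and YAP_OE library lay above every control, and the log2 fold changes were 6.23 ± 1.08 (SE) in LATS_KO (adjusted p = 0.0052, edgeR) and 5.77 ± 1.07 in YAP_OE (adjusted p = 0.0028). Fcgr4 (chromosome 1, 171018920 to 171029761), an activating receptor for IgG2 subclasses, was at 0, 0.0552, 0.0794 and 0 CPM over controls 1 to 4. In LATS_KO it stood at 1.299, 9.67, 10.7, 5.70, 5.19 and 3.61 CPM, and the YAP_OE libraries held 2.43, 1.82, 1.95, 3.40 and 6.31 CPM. The groups did not overlap here either. With 2 counts in the controls, the ratio of CPM was 198 (exact 95% interval 54.6 to 1639) in LATS_KO and 101 (27.7 to 834) in YAP_OE, and without TdTomato 3 it was 319 and 162 (adjusted p = 0.0030 and 0.0015 with all libraries, edgeR). These intervals cover counting error only.

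Fcer1g (chromosome 1, 171229572 to 171234365), the ITAM-bearing chain that these receptors need at the surface, was at 0, 0.0552, 0.238 and 0.335 CPM over controls 1 to 4. Levels in LATS_KO were 2.71, 32.9, 12.1, 10.7, 7.55 and 6.37 CPM, and the YAP_OE libraries held 5.02, 4.11, 4.00, 6.43 and 16.7 CPM. The lowest LATS_KO and YAP_OE libraries were far above the highest control. It rose by 6.17 ± 1.02 on the log2 scale in LATS_KO (adjusted p = 0.0047, edgeR) and by 5.43 ± 1.00 in YAP_OE (adjusted p = 0.0027). Fcgr3 (chromosome 1, 171051174 to 171064935), a low-affinity activating receptor, averaged 0.179 ± 0.229 CPM in TdTomato (SD, n = 4), 9.15 ± 12.2 in LATS_KO (n = 6) and 8.21 ± 3.495 in YAP_OE (n = 5). LATS_KO 2 stood at 33.4 CPM and LATS_KO 3 at 0. Its log2 fold change of 5.58 ± 1.44 in LATS_KO (adjusted p = 0.022, edgeR) was 4.50 without LATS_KO 2 and did not pass without TdTomato 2 or TdTomato 3 (adjusted p = 0.068 and 0.063), and in YAP_OE it was 5.42 ± 1.44 (adjusted p = 0.013). Without TdTomato 4, the log2 fold changes in LATS_KO and YAP_OE were 7.04 and 6.58 for Fcgr1, 6.91 and 6.17 for Fcer1g and 6.85 and 6.69 for Fcgr3, and without LATS_KO 2 Fcer1g was at 5.56 in LATS_KO.

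**Figure D2:**
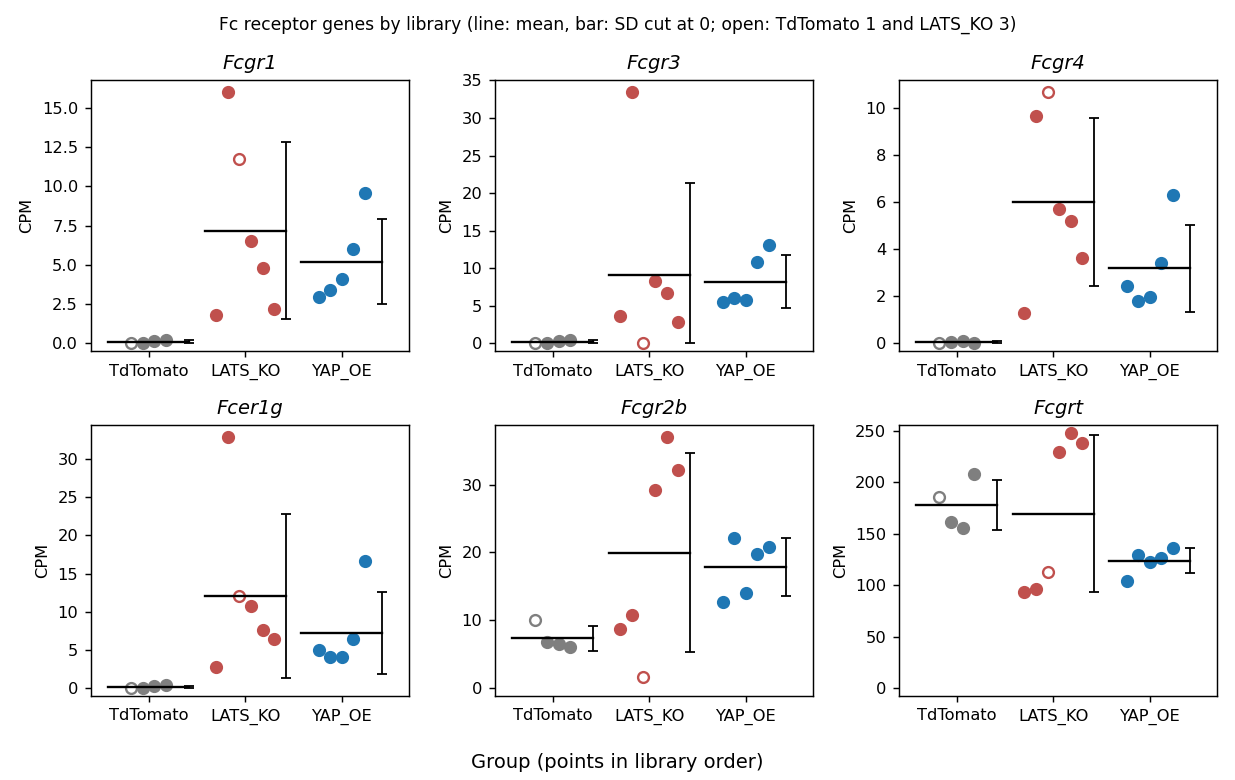
CPM of 6 Fc receptor genes in each library of TdTomato (n = 4), LATS_KO (n = 6) and YAP_OE (n = 5), with the mean as a line, the SD as a bar and TdTomato 1 and LATS_KO 3 as open points. Fcgr1, Fcgr4 and Fcer1g lie above the controls in all 11 other libraries, whereas Fcgr2b and Fcgrt are present in the controls.

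The inhibitory receptor and the recycling receptor had other patterns. Fcgr2b (chromosome 1, 170958617 to 170976547) was at 10.1, 6.79, 6.51 and 5.98 CPM over controls 1 to 4. The LATS_KO series read 8.71, 10.7, 1.67, 29.2, 37.1 and 32.2 CPM, and the YAP_OE libraries held 12.6, 22.1, 13.99, 19.8 and 20.8 CPM. LATS_KO 4 to 6 were high, LATS_KO 1 and 2 near the controls, LATS_KO 3 below them, and YAP_OE above them in every library. Neither difference passed the test, at 1.44 ± 0.61 in LATS_KO (adjusted p = 0.15, edgeR) and 1.28 ± 0.62 in YAP_OE (adjusted p = 0.14). Both passed it without LATS_KO 3 (1.68 and 1.28, adjusted p = 0.016 and 0.025, edgeR) and without LATS_KO 3 and TdTomato 1 (1.87 and 1.47, adjusted p = 0.015 and 0.017). With voom both passed too (2.16 and 1.46, adjusted p = 0.00031 and 0.0011). The YAP_OE difference also passed with DESeq2 (1.40, adjusted p = 0.048) and in a fit of its 2 groups alone (1.28, adjusted p = 0.0067, edgeR), and that in LATS_KO passed in neither. Fcgrt (chromosome 7, 45092990 to 45103851), whose product returns IgG and albumin to the blood, was by far the most abundant member per length, at 74.5 CPM per kilobase of exon over all libraries, against 8.33 for Fcer1g, the next. It was at 186, 162, 156 and 208 CPM over controls 1 to 4. The LATS_KO libraries showed 93.3, 96.2, 112, 229, 248 and 239 CPM, and the YAP_OE libraries held 104, 129, 122, 127 and 136 CPM. LATS_KO thus held libraries on both sides of the controls, and YAP_OE lay below them throughout. The log2 fold changes were −0.07 ± 0.29 in LATS_KO (adjusted p = 0.92, edgeR) and −0.53 ± 0.30 in YAP_OE (adjusted p = 0.21), and the latter passed in a fit of those 2 groups alone (adjusted p = 0.017) and with voom (−0.40, adjusted p = 0.013). In LATS_KO voom called Fcgrt higher (0.45, adjusted p = 0.039).

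Per kilobase of exon, the summed level of Fcgr1, Fcgr3 and Fcgr4 was 0 to 0.338 times that of Fcgr2b in TdTomato, 0.965 to 45.3 times in LATS_KO and 1.63 to 4.52 times in YAP_OE. The value of 45.3 came from LATS_KO 3, where Fcgr3 was at 0, and the next was 17.9 in LATS_KO 2. Reads shared by Fcgr2b, Fcgr3 and Fcgr4, which are related genes within 106.3 kb of chromosome 1, were not counted where they mapped to several places, so their levels are uncertain to that extent. Fcgrt made up 84.8% to 87.6% of the summed CPM of the 39 genes in TdTomato, 24.3% to 73.8% in LATS_KO and 45.1% to 53.7% in YAP_OE. The sum without Fcgrt was 28.0 to 32.8 CPM in TdTomato, 39.9 to 300.02 CPM in LATS_KO and 100.1 to 165 CPM in YAP_OE.

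Genes that carry Fc receptor signals were examined as a list. Of 15 tested, 9 rose in LATS_KO and 8 in YAP_OE, with 0 lower, where 10% and 17.9% of all genes tested were higher. Among those that rose in both were Pik3cd, a leukocyte phosphoinositide kinase subunit, Vav1, a guanine exchange factor, and Plcg2, a phospholipase. Pik3cd averaged 0.0120 CPM in TdTomato, 9.64 in LATS_KO and 3.91 in YAP_OE, and Vav1 0.113, 9.16 and 4.38 CPM. The only control count of Pik3cd was in TdTomato 4, and Vav1 was at 0.276 CPM in TdTomato 2 and at 0 to 0.0958 CPM in the other controls. Syk, the kinase recruited to phosphorylated ITAMs, averaged 0.260, 6.20 and 4.98 CPM, with TdTomato 3 at 0.794 CPM and the other controls at 0 to 0.192 CPM, and LATS_KO 2 at 20.1 CPM and the other LATS_KO libraries at 0 to 7.67 CPM (log2 fold changes 4.59 ± 1.32 and 4.27 ± 1.32, adjusted p = 0.037 and 0.025, edgeR). Lyn, a Src-family kinase already present in the controls, averaged 28.9 CPM in TdTomato, 50.6 in LATS_KO (0.81 ± 0.22, adjusted p = 0.031, edgeR) and 43.6 in YAP_OE (0.59 ± 0.23, adjusted p = 0.065). Tyrobp, an ITAM adaptor for other receptors, was at 9.04 CPM in YAP_OE against 1.40 in TdTomato and did not pass (adjusted p = 0.11, edgeR), with TdTomato 1 at 5.27 CPM and the other 3 controls at no more than 0.335 CPM. Ptpn11, a phosphatase with the highest CPM of the list, averaged 84.0 CPM in TdTomato, 104 in LATS_KO and 113 in YAP_OE and did not pass. Syk, Lyn and Tyrobp were singled out after their values were seen.

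Toll-like receptors divided by member rather than as a family. Of 10 tested, 4 rose in LATS_KO and 5 in YAP_OE, where 10% and 17.9% of all genes tested were higher. Those that rose held 2 to 9 counts over the controls. Tlr2, Tlr3, Tlr5 and Tlr12, with 149 or more, did not pass in edgeR with all libraries. With other methods on all libraries Tlr2, Tlr5 and Tlr12 passed in some comparisons, as given below. Tlr7 (chromosome X, 167304929 to 167330558), an endosomal sensor of single-stranded RNA, was at 0, 0, 0.0794 and 0.0958 CPM over controls 1 to 4. In LATS_KO it stood at 0.433, 5.59, 0, 1.67, 1.48 and 0.601 CPM, and the YAP_OE libraries held 1.45, 1.04, 1.65, 2.32 and 2.705 CPM. All libraries but LATS_KO 3 were above the controls. From 3 control counts, the ratio of CPM was 48.9 (exact 95% interval 16.5 to 239) in LATS_KO and 38.9 (13.2 to 190) in YAP_OE (adjusted p = 0.022 and 0.010, edgeR). It was 20.5 in LATS_KO without LATS_KO 2, and 99.2 and 79.0 without TdTomato 4. For Tlr7 the call in LATS_KO ended without TdTomato 2, 3 or 4 (adjusted p = 0.074, 0.056 and 0.053, edgeR).

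The other receptors that rose in both groups were Tlr1, which senses bacterial lipopeptides with Tlr2, Tlr8, a paralog of Tlr7, and Tlr13, a sensor of bacterial ribosomal RNA. Tlr13 averaged 0.0756 CPM in TdTomato, 3.85 in LATS_KO and 2.28 in YAP_OE, and LATS_KO 2 alone held 17.4 CPM. Its log2 fold change of 5.56 ± 1.49 in LATS_KO (adjusted p = 0.027, edgeR) was 3.81 without LATS_KO 2 (adjusted p = 0.053) and did not pass without any 1 of the controls (adjusted p = 0.057 to 0.083), and in YAP_OE it did not pass without TdTomato 2 (adjusted p = 0.064). Tlr1 had a ratio of CPM of 39.3 (exact 95% interval 13.3 to 192) in LATS_KO, 23.4 without LATS_KO 2, and 22.6 (7.59 to 111) in YAP_OE. All 3 control counts of Tlr1 were in TdTomato 4, without which it was at least 26.6-fold and at least 15.3-fold higher. Tlr1 did not pass in LATS_KO without TdTomato 2 or TdTomato 3 (adjusted p = 0.076 and 0.068, edgeR). For Tlr8 the ratio was 41.5 (11.3 to 346) in LATS_KO, 18.9 without LATS_KO 2, and 34.4 (9.36 to 287) in YAP_OE. Both control counts were in TdTomato 3, without which Tlr8 was at least 22.3-fold and at least 18.5-fold higher. Tlr8 (adjusted p = 0.042 in LATS_KO and 0.019 in YAP_OE, edgeR) did not pass in LATS_KO without TdTomato 1, 2 or 4, LATS_KO 1, 2 or 4 or any YAP_OE library (adjusted p = 0.054 to 0.12), nor in YAP_OE without TdTomato 2 or TdTomato 4 (adjusted p = 0.055 and 0.058). Tlr4, the lipopolysaccharide receptor, averaged 0.153, 1.34 and 1.35 CPM, with log2 fold changes of 3.14 ± 1.04 in LATS_KO (adjusted p = 0.066, edgeR) and 3.14 ± 1.06 in YAP_OE (adjusted p = 0.037). Both were 4.08 without TdTomato 3. In YAP_OE it did not pass without TdTomato 1, 2 or 4 (adjusted p = 0.056, 0.081 and 0.10, edgeR) or without any 1 of YAP_OE 1 to 4 (adjusted p = 0.056 to 0.074), and in LATS_KO it passed without LATS_KO 3 (adjusted p = 0.0100). With all libraries Tlr4 passed in LATS_KO with DESeq2 (adjusted p = 0.0018) and voom (adjusted p = 0.00037). Tlr6, which pairs with Tlr2, averaged 0.220, 1.11 and 0.974 CPM and did not pass in LATS_KO (2.32 ± 0.94, adjusted p = 0.13, edgeR) or YAP_OE (2.12 ± 0.95, adjusted p = 0.11). Without LATS_KO 3 it passed in both (adjusted p = 0.023 and 0.024, edgeR). With all libraries Tlr6 passed in both with DESeq2 (adjusted p = 0.0095 and 0.0100) and voom (adjusted p = 0.0059 and 0.0026). In YAP_OE it also passed in a fit of the 2 groups alone (adjusted p = 0.043, edgeR).

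Tlr12 (chromosome 4, 128615443 to 128618619), a sensor of parasite profilin, was the most abundant Toll-like receptor per length and was at 0, 4.91, 2.701 and 6.37 CPM over controls 1 to 4. Levels in LATS_KO were 8.39, 8.50, 0, 9.87, 8.56 and 5.95 CPM, and the YAP_OE libraries held 18.7, 15.2, 10.8, 12.4 and 19.0 CPM. YAP_OE lay above both other groups without overlap. With all libraries it did not pass in YAP_OE (2.12 ± 1.06, adjusted p = 0.15, edgeR), and without LATS_KO 3 it did (2.11, adjusted p = 0.039). It passed there with all libraries in DESeq2 (2.35, adjusted p = 0.034) and voom (1.74, adjusted p = 0.00011). In LATS_KO it passed with voom (1.03, adjusted p = 0.049). Tlr2, Tlr3 and Tlr5, which sense lipopeptides, double-stranded RNA and flagellin, overlapped between all groups and did not pass in edgeR. With voom Tlr2 passed in LATS_KO (1.71, adjusted p = 0.0095) and YAP_OE (1.53, adjusted p = 0.0030), and Tlr5 in YAP_OE (1.10, adjusted p = 0.0069). Tlr3 averaged 8.04 CPM in TdTomato, 5.32 in LATS_KO and 5.87 in YAP_OE, and Tlr5 3.56, 4.65 and 9.52 CPM. Of 24 accessory and adaptor genes of these receptors, 4 rose and 1 fell in LATS_KO, where 10% of all genes tested were higher and 0.973% lower. In YAP_OE 5 rose and 3 fell, where 17.9% of all genes tested were higher and 10.8% lower, so the YAP_OE shares are near those of all genes. Ly86 and Cd180, which form a complex related to that of Tlr4, Ticam2, an adaptor of Tlr4, and Cd14, its co-receptor, rose in both, and Tnfaip3, a brake on NF-kB signalling, rose in YAP_OE. Cd14 was at 0 to 0.670 CPM in TdTomato with a mean of 0.255 CPM, 6.75 in LATS_KO and 5.00 in YAP_OE. Hsp90b1, a chaperone of Toll-like receptors and other secretory proteins, fell by 0.98 ± 0.29 on the log2 scale in LATS_KO (adjusted p = 0.043, edgeR) and by 1.36 ± 0.31 in YAP_OE (adjusted p = 0.0062). In YAP_OE the lipopolysaccharide-binding protein gene Lbp (72.7 against 188 CPM, with TdTomato 4 at 417 CPM and the other controls at 65.0 to 160 CPM) and the chaperone gene Cnpy3 (28.5 against 51.7 CPM) fell too.

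**Figure D3:**
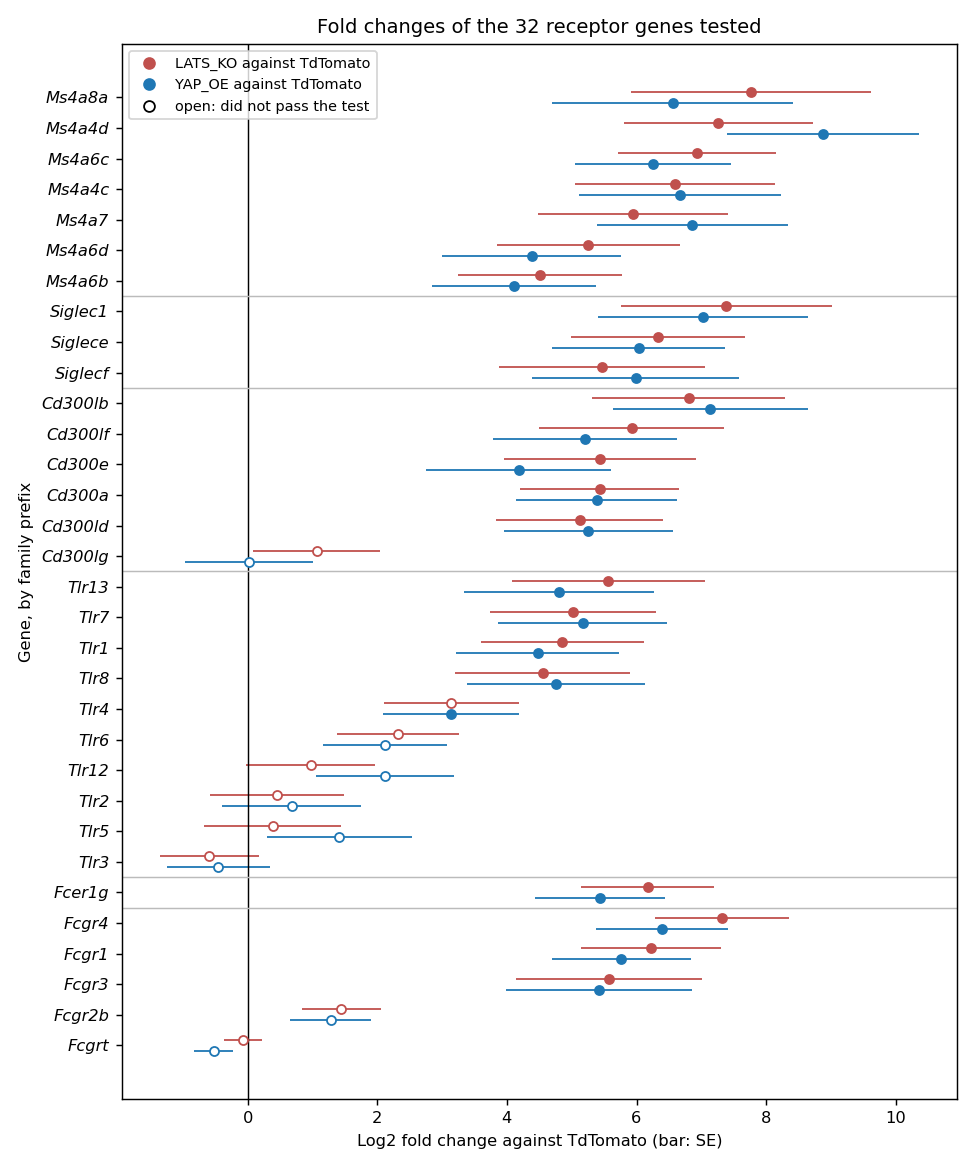
Log2 fold change against TdTomato with its SE for the 32 receptor genes tested, grouped by family, in LATS_KO (red) and YAP_OE (blue), with open points where the test was not passed. The values of the 6 genes at 0 counts in all controls depend on the prior count of the fit, and all 7 Ms4a and 3 Siglec genes are filled while Fcgrt, Fcgr2b, Cd300lg, Tlr2, Tlr3, Tlr5, Tlr6 and Tlr12 are open in both comparisons.

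CD300 genes lie together on chromosome 11, with Cd300lg apart from the others. Cd300a (chromosome 11, 114890041 to 114904654), an inhibitory receptor, was at 0, 0.0552, 0.0794 and 0.192 CPM over controls 1 to 4. The LATS_KO series read 1.68, 10.2, 0, 6.05, 3.51 and 2.28 CPM, and the YAP_OE libraries held 2.40, 2.48, 3.07, 4.65 and 6.74 CPM. Only LATS_KO 3 overlapped with the controls. It rose by 5.43 ± 1.23 in LATS_KO (adjusted p = 0.013, edgeR) and 5.39 ± 1.24 in YAP_OE (adjusted p = 0.0070), by 6.28 and 6.24 without TdTomato 4, and did not pass in LATS_KO without TdTomato 2 (adjusted p = 0.052). Cd300lb, an activating member, was at 0 in all 4 controls. The LATS_KO libraries showed 0.216, 1.96, 0, 0.570, 0.809 and 0.240 CPM, and the YAP_OE libraries held 0.615, 0.704, 0.673, 1.04 and 1.10 CPM. Cd300ld and Cd300lf, the other members that rose, averaged 0.125 and 0.0337 CPM in TdTomato, 4.31 and 2.27 in LATS_KO and 4.75 and 1.39 in YAP_OE, and in LATS_KO the ratio of CPM of Cd300lf was 106 (exact 95% interval 29.2 to 882) and 34.7 without LATS_KO 2. Without TdTomato 3 it was 171 in LATS_KO and 71.7 in YAP_OE, where it was 44.6 (12.2 to 371) with all libraries, and the log2 fold changes of Cd300ld moved from 5.12 to 6.66 and from 5.26 to 6.79. In LATS_KO neither passed without TdTomato 2 (adjusted p = 0.073 and 0.054, edgeR) or TdTomato 4 (adjusted p = 0.071 and 0.059). For Cd300lb, against a floor of 3 counts over the control group, the level was at least 18.2-fold higher in LATS_KO and at least 17.5-fold higher in YAP_OE (adjusted p = 0.014 and 0.0060, edgeR), and at least 8.68-fold higher in LATS_KO without LATS_KO 2.

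Cd300e, an activating receptor of monocytes, was at 0, 0.0552, 0 and 0.239 CPM over controls 1 to 4. In LATS_KO it stood at 0.216, 12.96, 0, 5.70, 2.697 and 1.14 CPM, and the YAP_OE libraries held 1.38, 1.19, 1.01, 1.57 and 2.82 CPM. LATS_KO ran from 0 to 12.96 CPM, and every YAP_OE library lay within that range and above the controls. The log2 fold change was 5.43 ± 1.48 in LATS_KO (adjusted p = 0.029, edgeR), 4.48 without LATS_KO 2 (adjusted p = 0.060) and 7.11 without TdTomato 4, and in YAP_OE 4.18 ± 1.43 (adjusted p = 0.039), 5.86 without TdTomato 4. The call also ended without TdTomato 1, 2 or 3, at adjusted p = 0.060, 0.089 and 0.081 in LATS_KO and 0.071, 0.095 and 0.092 in YAP_OE (edgeR). In YAP_OE it ended without each YAP_OE library as well (adjusted p = 0.054 to 0.072, edgeR).

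Cd300lg (102041509 to 102055620), a member carried by endothelium rather than myeloid cells, was at 7.51, 2.37, 2.14 and 2.35 CPM over controls 1 to 4. Levels in LATS_KO were 2.76, 0.982, 0, 14.95, 13.7 and 12.7 CPM, and the YAP_OE libraries held 2.52, 4.41, 3.25, 3.40 and 4.55 CPM. As with Fcgr2b, LATS_KO 4 to 6 were high and the other LATS_KO libraries were not. Neither difference passed in edgeR, at 1.07 ± 0.98 in LATS_KO (adjusted p = 0.56) and 0.01 ± 0.99 in YAP_OE (adjusted p = 0.99), nor without TdTomato 1 (1.71 and 0.66, adjusted p = 0.32 and 0.67). With voom that in LATS_KO passed (2.33, adjusted p = 0.0021), and that in YAP_OE did not. Of the endothelial markers, Clec4g, Kdr and Stab2 were higher in each of LATS_KO 4 to 6 than in LATS_KO 1 to 3. Stab1, Lyve1, Pecam1 and Cdh5 did not split in this way. LATS_KO 2 held the highest Stab1 and Lyve1 of the group, at 57.5 and 12.9 CPM. Clec4g, a lectin of sinusoidal endothelium, was at 49.9, 60.0 and 53.2 CPM in LATS_KO 4 to 6, at 9.42, 2.98 and 0 CPM in LATS_KO 1 to 3, at 0 to 8.33 CPM in TdTomato and at 12.8 to 26.9 CPM in YAP_OE. The 7 endothelial markers were summed at 13.2 to 51.7 CPM in TdTomato, 17.0 to 277 CPM in LATS_KO and 113 to 182 CPM in YAP_OE, with none at 0 in all controls. Of these markers 2 rose in LATS_KO and 3 in YAP_OE, where 10% and 17.9% of all genes tested were higher. Their part in the levels of Fcgr2b and Cd300lg was not tested.

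**Figure D4:**
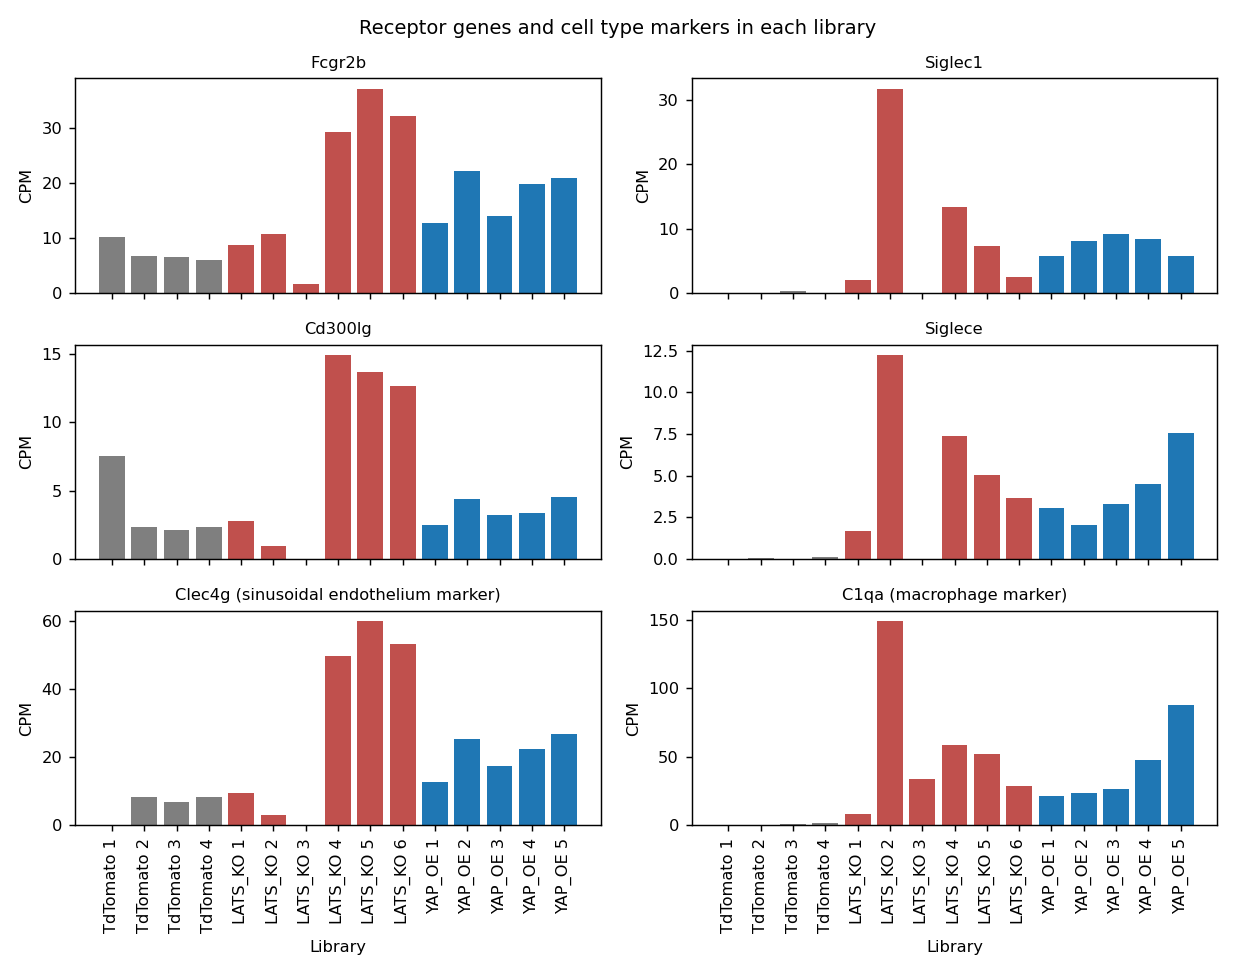
CPM in each library of Fcgr2b and Cd300lg with the endothelial marker Clec4g (left) and of Siglec1 and Siglece with the macrophage marker C1qa (right), coloured by group. LATS_KO 4 to 6 are highest on the left, and LATS_KO 2 is highest on the right, at 31.8 CPM for Siglec1 and 12.2 CPM for Siglece.

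All 3 Siglec genes tested rose in both groups. Siglece (chromosome 7, 43651070 to 43660161), an inhibitory Siglec of myeloid cells, was at 0, 0.0552, 0 and 0.144 CPM over controls 1 to 4. The LATS_KO series read 1.68, 12.2, 0, 7.37, 5.06 and 3.67 CPM, and the YAP_OE libraries held 3.05, 2.04, 3.29, 4.50 and 7.57 CPM. LATS_KO 3 alone overlapped with the controls. The log2 fold changes were 6.33 ± 1.34 in LATS_KO (adjusted p = 0.011, edgeR) and 6.03 ± 1.34 in YAP_OE (adjusted p = 0.0059), and 7.51 and 7.21 without TdTomato 4. Siglec1, the sialoadhesin of tissue macrophages, averaged 0.0596 CPM in TdTomato, 9.498 in LATS_KO and 7.42 in YAP_OE. From 3 control counts its ratio of CPM was 287 (exact 95% interval 98.2 to 1395) and 159 (54.1 to 770.1), and in LATS_KO 129 without LATS_KO 2 (adjusted p = 0.012 and 0.0069 with all libraries, edgeR). All 3 control counts were in TdTomato 3, without which it was at least 231-fold and at least 128-fold higher.

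Siglecf, known from eosinophils and alveolar macrophages, was at 0 in all controls. The LATS_KO libraries showed 0.325, 0.430, 0, 0.614, 0.0674 and 0 CPM, and the YAP_OE libraries held 0.185, 0.185, 0.337, 0.429 and 0.706 CPM. These are low levels, from 35 counts over LATS_KO and 50 over YAP_OE, and give at least 6.58-fold and 7.70-fold higher values (adjusted p = 0.046 and 0.016, edgeR). The call in LATS_KO ended without any 1 of the 4 controls (adjusted p = 0.075 to 0.10, edgeR) or LATS_KO 1 (adjusted p = 0.073), and without YAP_OE 1, 2 or 3 (adjusted p = 0.062 to 0.065). The eosinophil markers were summed at 0 to 6.58 CPM in TdTomato, 0 to 0.175 CPM in LATS_KO and 0.0374 to 0.196 CPM in YAP_OE. The value of 6.58 was Il5ra in TdTomato 1, the other 3 controls being at 0, so in LATS_KO and YAP_OE they were near 0 where Siglecf was counted. Siglecg, a B cell Siglec, and Siglech, of plasmacytoid dendritic cells, were kept but too low to be tested, with 28 and 35 counts over the 6 LATS_KO libraries.

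The Ms4a genes form a cluster of 16 between 10962293 and 11640851 on chromosome 19, and the 7 tested rose in both groups. Ms4a6c (11469366 to 11482192), a monocyte and macrophage member, was at 0, 0, 0 and 0.144 CPM over controls 1 to 4. In LATS_KO it stood at 2.65, 19.5, 3.67, 4.43, 3.24 and 1.80 CPM, and the YAP_OE libraries held 1.97, 2.07, 2.17, 4.15 and 8.04 CPM. No library of either group overlapped with the controls. The 3 control counts gave a ratio of CPM of 169 (exact 95% interval 57.5 to 819) in LATS_KO, 68.6 without LATS_KO 2, and 76.8 (26.1 to 374) in YAP_OE, all of the control counts being in TdTomato 4 (adjusted p = 0.0055 and 0.0032, edgeR). Without TdTomato 4 it was at least 114-fold and at least 51.9-fold higher. Ms4a4d (11536801 to 11558467) was at 0 in all controls. Levels in LATS_KO were 1.68, 1.54, 0, 0.745, 0.202 and 1.14 CPM, and the YAP_OE libraries held 2.15, 2.37, 3.78, 2.97 and 2.59 CPM. It was at least 22.6-fold higher in LATS_KO and at least 59.1-fold higher in YAP_OE (adjusted p = 0.011 and 0.0026, edgeR). Unlike Ms4a6c, it was not highest in LATS_KO 2, and its YAP_OE libraries lay above every LATS_KO library.

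The remaining Ms4a genes that rose were Ms4a4c, Ms4a6b, Ms4a6d, Ms4a7, a macrophage gene, and Ms4a8a. Ms4a6d averaged 0.0736 CPM in TdTomato, 3.35 in LATS_KO and 1.83 in YAP_OE, with LATS_KO 2 at 13.2 CPM. Its log2 fold change in LATS_KO was 5.26, 3.99 without LATS_KO 2 and 6.94 without TdTomato 4, and in YAP_OE 4.38 and, without TdTomato 4, 6.06. For Ms4a6b the log2 fold changes of 4.51 and 4.11 were 5.22 and 4.83 without TdTomato 3, and 3.64 in LATS_KO without LATS_KO 2. Ms4a8a, at 0 in all controls, was at least 38.6-fold higher in LATS_KO and at least 11.7-fold higher in YAP_OE, and at least 14.7-fold higher in LATS_KO without LATS_KO 2. Ms4a4c and Ms4a7, also at 0 in all controls, were at least 15-fold and 9.22-fold higher in LATS_KO, 9.47-fold and 5.52-fold without LATS_KO 2, and at least 12.5-fold and 14.2-fold higher in YAP_OE, where Ms4a4c was at least 7.72-fold higher without YAP_OE 5. In LATS_KO the calls of these 5 genes each ended in more than 1 of the fits that left out a control. Without TdTomato 2 none of the 5 passed (adjusted p = 0.055 to 0.097, edgeR), and Ms4a6b (adjusted p = 0.068) and Ms4a6d (adjusted p = 0.056) did not pass without LATS_KO 2 either. In YAP_OE, Ms4a6b did not pass without TdTomato 2 or TdTomato 4 (adjusted p = 0.067 and 0.056, edgeR), and Ms4a6d did not without TdTomato 1, 2 or 3 or YAP_OE 5 (adjusted p = 0.051 to 0.072). The parts of the cluster with other known carriers stayed low. Ms4a1, which encodes the B cell antigen CD20, had 4 counts over all 15 libraries, Ms4a2, the beta chain of the mast cell IgE receptor, had 0, Ms4a3, of granulocyte and monocyte progenitors, had 20, and Ms4a4b, a T cell member, had 39. Ms4a5 had 1 count, and Ms4a10, Ms4a13, Ms4a15 and Ms4a18 had 0. Related pairs such as Ms4a4b and Ms4a4c or Ms4a6b and Ms4a6c share sequence, and reads with several mapping places were left uncounted, so the split between them is uncertain.

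Most members were not spread evenly over the LATS_KO libraries. LATS_KO 2 held the highest level of the group for 23 of the 39 genes, LATS_KO 4 for 8, LATS_KO 1 for 4, LATS_KO 5 for 3 and LATS_KO 3 for 1, Fcgr4. In YAP_OE, YAP_OE 5 was highest for 20 of the 38 genes with counts. The summed macrophage markers moved with this, at 1392 CPM in LATS_KO 2 against 238 to 490 CPM in the other 5, and at 825 CPM in YAP_OE 5 against 517 to 698 CPM in the other 4. Their part in the receptor levels was not tested.

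The last comparison set YAP_OE against LATS_KO. Of the 32 receptor genes 0 passed the test (edgeR), with 0 at an unadjusted p under 0.05, where 0.988% of all genes tested passed, 0.498% higher and 0.490% lower. DESeq2 called 0 and voom with quality weights 11, of which 3 were higher in YAP_OE and 8 lower. The share of all genes called with voom is not given here, so whether 11 stands out is not shown. The median log2 fold change was −0.18, against −0.03 over all genes. The values furthest from 0 were 1.62 ± 0.77 for Ms4a4d (adjusted p = 0.36, edgeR) and −1.25 ± 1.05 for Cd300e (adjusted p = 0.69). The standard errors ran from 0.28 for Fcgrt to 1.05 for Cd300e, so the groups are not shown to be alike. All YAP_OE libraries lay above all LATS_KO libraries for Ms4a4d and Tlr12 alone (4.76% of all genes tested), and 2 genes did so without LATS_KO 3 (6.02% of all genes tested). Tlr12 passed without TdTomato 1 and LATS_KO 3 (0.88 ± 0.24, adjusted p = 0.034, edgeR), the only call among the 33 receptor genes in that fit, in which 5.56% of all genes tested were higher.

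Of the 39 genes kept, Tlr9, Tlr11, Cd300c, Ms4a3, Ms4a4b, Siglecg and Siglech did not pass the filter of the test. Tlr9, a sensor of unmethylated DNA, was at 0 in all controls and at no more than 1.81 CPM elsewhere, and passed without TdTomato 1 and LATS_KO 3 in LATS_KO and YAP_OE (adjusted p = 0.040 and 0.046, edgeR). Of the 50 symbols, 11 had fewer than 10 counts. Besides 7 Ms4a genes they were Fcer1a, the alpha chain of the mast cell IgE receptor, with 3 counts, Fcer2a, the B cell IgE receptor, with 5, Cd300lh with 7, and Siglec15 with 0.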

How the data were processed

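Poly(A) RNA of mouse liver was sequenced with a strand-specific kit in 15 libraries, per the labels' protocols. The submitters' processing notes name FastQC, Trimmomatic, STAR and the mm10 build, with no versions given in the sources used here. The deposited values are raw counts per gene, and the column of the reverse strand was used. Rows that name no gene were left out of library sizes. Gene coordinates are from GENCODE M21 and promoters from RefSeq GRCm38.p6.

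Counts were fitted with edgeR 4.0.16 in R 4.3.3 (TMM, filterByExpr, robust quasi-likelihood test, two-sided, 12 residual degrees of freedom), over all 13055 genes tested, with Benjamini-Hochberg adjustment. Standard errors were derived from the F statistic. Folds against groups at 0 counts used a floor of 3 counts over the group, and ratios on 1 to 3 counts have exact 95% intervals that cover counting error only. Values in every library are given for Fcgr1, Fcgr4, Ms4a6c, Fcer1g, Fcgr2b, Fcgrt, and in each family the highest member per kilobase and the one with the smallest adjusted p in each comparison. The genes and lists were chosen with earlier results of these data known. Alternatives were RLE, DESeq2 1.42.0, voom in limma 3.58.1, other filters, unstranded counts, the groups compared alone, a replicate block and libraries left out. The scripts were tested on simulated data.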

Additional observations from a re-analysis of the deposited data

Results flagged for a closer look

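In 6 of 42 groups of libraries examined over 15 receptor genes, 1 library lay far from the rest of its group. The rule flags about 1 group of 20 for independent values with a normal spread. That rate does not carry over here, where the genes share libraries and some levels are at 0. Ms4a6c was at 19.5 CPM in LATS_KO 2, with the next library at 4.43 CPM, and at 0.144 CPM in TdTomato 4, with the other controls at 0. Fcer1g was at 32.9 CPM in LATS_KO 2 (next 12.1 CPM) and at 16.7 CPM in YAP_OE 5 (next 6.43 CPM). Tlr7 was at 5.59 CPM in LATS_KO 2 (next 1.67 CPM). Cd300lg was at 7.51 CPM in TdTomato 1 (next 2.37 CPM), the control library with 78.5% of its reads unmapped.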

How the results depend on the processing

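Of the receptor genes, 23 were called in LATS_KO and 24 in YAP_OE. These counts were 23 and 24 with RLE factors, 25 and 27 with DESeq2, 30 and 30 with voom, 22 and 24 with no filter, 18 and 19 with a stricter filter, 23 and 24 with unstranded counts, and 27 and 28 without TdTomato 1 and LATS_KO 3. In that last fit 13.7% and 27.2% of all genes tested were higher. For the other fits here the share of all genes called is not given, so their counts do not show how far the receptors stand out. The 2 groups alone gave 0 in LATS_KO, of 26 tested, and 24 in YAP_OE. Leaving out 1 library gave 8 to 26 in LATS_KO and 18 to 27 in YAP_OE, and 8 and 18 genes were called in every such fit that tested them. Among the 18, Ms4a7 and Siglecf were tested in 11 of the 15 fits and the others in all 15. Against each other, YAP_OE and LATS_KO gave 11 with voom, 1 without TdTomato 1 and LATS_KO 3, and 0 to 0 with 1 library left out. Replicate numbers did not pair the libraries (correlations of same-numbered deviations −0.249 to 0.232 over 13 pairs, median −0.004), and the replicate block gave 5 in LATS_KO, 21 in YAP_OE and 0 between them.

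Some log2 fold changes changed sign, and the cause was not tested. Leaving out 1 library in turn, the range in LATS_KO was −0.021 to 0.84 for Tlr5 (lowest without TdTomato 1) and −0.21 to 0.056 for Fcgrt (above 0 without TdTomato 4 or LATS_KO 1, 2 or 3). In YAP_OE it was −0.17 to 0.66 for Cd300lg and −0.68 to 0.059 for Tlr3 (highest without TdTomato 1). Between YAP_OE and LATS_KO it was −0.40 to 0.11 for Fcgr2b (above 0 without LATS_KO 5 or 6), and −1.19 to 0.22 for Ms4a6c and −0.64 to 0.20 for Siglece (highest without LATS_KO 2). In LATS_KO, voom gave −0.57 for Tlr5 and 0.45 for Fcgrt. Without TdTomato 1 and LATS_KO 3 together, Fcgrt was 0.046 and Tlr3 0.18 in LATS_KO and Tlr3 0.060 in YAP_OE. The replicate block gave −0.21 for Cd300lg in LATS_KO and −0.063 in YAP_OE, and between those groups 0.44 for Fcgr2b, 0.15 for Cd300lg, 0.21 for Cd300e and 0.45 for Siglece. Most receptor genes had 0 to 14 counts over the controls, so their fold changes rest on few reads.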
